A study of Mus musculus with 9 samples.

Results

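The major histocompatibility complex (MHC) class II genes were described here across thymic tumours, pre-transformed thymocytes and control thymocytes of the mouse. The members were H2-Aa, H2-Ab1, H2-Eb1, Cd74, H2-DMa, H2-DMb1, H2-Oa, H2-Ob and Ciita, and every probe set that named 1 of these 9 genes and no other was taken. This gave 16 of the 45037 probe sets on the array, for 8 of the 9 genes. H2-DMb1 was measured only by probe sets that also name H2-DMb2. Of the 16 probe sets, 13 had at least 2 arrays on which they were no dimmer than the array's median probe set, and these were tested among 26421 such probe sets, and 3 of these 13 passed through the tumour arrays only.

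The tumour group held 4 C57Bl/6 mice of genotype R26NC/NC CD4Cre+ aged 28, 26, 23 and 21 weeks (tumours 1 to 4), sampled as whole thymic tumours in which at least 95% of cells carried CD4 and CD8. The pre-transformed group held 3 mice of genotype R26NC/NC CD4Cre+ aged 6 weeks, and the control group 2 mice of genotype R26NC/NC CD4Cre- aged 6 weeks, both sampled as sorted CD4+CD8+ double-positive (DP) thymocytes of over 98% purity. All mice thus carried R26NC/NC, which the series ties to an activated form of β-catenin, and Cre, driven by the Cd4 promoter, was present in the tumour and pre-transformed groups only. Each array held RNA of 1 mouse, so that spread between arrays includes the spread between mice. Tumours were unsorted, older and labelled from 2.5 µg RNA by the standard protocol, and sorted cells were labelled from 0.1 µg with an amplification kit. Sorting, age, labelling and transformation therefore cannot be told apart in any tumour comparison.

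MHC class II molecules present peptides from the endocytic route to CD4 T cells. An α and a β chain pair with the invariant chain (Cd74), which fills the groove until H2-DM removes its last fragment and H2-O tempers H2-DM. Ciita is the coactivator that switches these genes on, through RFX, NF-Y and CREB factors bound at the X and Y boxes of their promoters. In the thymus the molecules are carried by epithelial cells, dendritic cells, macrophages and B cells, and mouse DP thymocytes are known to carry little or none. The genes lie together on chromosome 17 (GRCm38.p6), where the 7 H2 genes span from H2-Oa at chr17:34092379-34095234 to H2-Eb1 at chr17:34305867-34316674, whereas Ciita is at chr16:10480014-10531064 and Cd74 lies on another chromosome.

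Promoters of 6 of the 9 genes were matched by symbol in RefSeq (GRCm38.p6), each from 250 bases before to 50 after the gene's start. Shown are a promoter of an α chain and of a β chain gene that were bright in 3 tumours, and that of H2-Oa, which was lower in all 4. The intervals are chr17:34287774-34288073 on the minus strand for H2-Aa, chr17:34305617-34305916 on the plus strand for H2-Eb1 and chr17:34092129-34092428 on the plus strand for H2-Oa. Capitals mark the Y box core ATTGG and the X1 box core GNAACNG, on either strand.
H2-Aa: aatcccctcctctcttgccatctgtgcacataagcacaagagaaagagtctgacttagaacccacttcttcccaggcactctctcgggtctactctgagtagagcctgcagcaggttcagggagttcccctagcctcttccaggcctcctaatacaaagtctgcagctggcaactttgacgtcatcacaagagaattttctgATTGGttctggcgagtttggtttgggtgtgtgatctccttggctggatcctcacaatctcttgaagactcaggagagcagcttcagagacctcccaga
H2-Eb1: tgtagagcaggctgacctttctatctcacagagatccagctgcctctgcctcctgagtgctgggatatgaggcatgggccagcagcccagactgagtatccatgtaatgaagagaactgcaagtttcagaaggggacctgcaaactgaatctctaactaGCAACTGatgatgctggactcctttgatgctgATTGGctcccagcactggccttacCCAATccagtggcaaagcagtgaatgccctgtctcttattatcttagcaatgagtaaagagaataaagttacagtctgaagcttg
H2-Oa: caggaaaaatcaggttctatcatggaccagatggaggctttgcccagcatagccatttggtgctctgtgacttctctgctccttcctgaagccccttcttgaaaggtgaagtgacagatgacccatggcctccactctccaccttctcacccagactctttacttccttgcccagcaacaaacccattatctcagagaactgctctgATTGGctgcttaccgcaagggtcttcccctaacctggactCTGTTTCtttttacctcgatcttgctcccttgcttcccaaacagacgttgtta
Counting the motif's first base from the gene's start, the Y box core lay at -48 in H2-Aa, at -59 and on the other strand at -35 in H2-Eb1, and at -43 in H2-Oa. The X1 box core lay at -91 in H2-Eb1, ahead of its Y box core, and on the opposite strand at -3 in H2-Oa. H2-Ob held a Y box core at -57, and H2-DMb1 an X1 box core at -94 ahead of a Y box core at -61. H2-DMa had a promoter with neither core and another with only a Y box core, at -198. Of 32851 RefSeq promoters of this length, 37.4% held the Y box core, 42.3% the X1 box core, and 1.02% an X1 box core with a Y box core starting 15 to 35 bases further on the same strand, an order chosen after the sequences were seen. In H2-Oa the letters matched on opposite strands, and its Y box core, like that of H2-Aa, had no X1 box core in that order within this window. Only exact matches to these letters were sought, so that an X box of other letters would be missed.

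Signals are the deposited MAS5 intensities on a linear scale, which can be compared between arrays for 1 probe set but not between probe sets. A signal is called dim where it was under the 65th percentile of its array (28.6 to 44.6). A probe set was called where the Benjamini-Hochberg adjusted p from limma was under 0.05 over the 26421 tested. The highest signal among 27 probe sets for bacterial transcripts was 7.8 to 13.9 on tumour arrays and 2.4 to 5.0 on sorted arrays. Labelling differed between these arrays, and background itself was not measured. Tumour 2 stood apart from the other tumours, and the changes of class II genes in tumours are given with and without it. It gave the lowest of the 4 tumour signals for 13 of the 13 class II probe sets tested, against 34.0% of all probe sets tested. Since tumour 2 is named because of such values, the smaller errors without it follow from leaving it out. For the same reason the changes, adjusted p values and calls without it describe the other tumours and are not a separate test.

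The chains that form the surface molecules were bright in 3 tumours and dim in the fourth. For H2-Aa, the α chain of the I-A molecule, the brightest probe set (1435290_x_at) gave signals of 1381.9, 1.2, 1058.3 and 1437.1 in tumours 1 to 4, 62.8, 80.5 and 65.5 in pre-transformed cells, and 56.2 and 40.7 in control cells. Tumours 1, 3 and 4 were above every sorted array, and tumour 2 was below every one of them. Over all 4 tumours the log2 change was 1.70 ± 2.14 (SE) against pre-transformed cells (adjusted p = 0.533) and 2.23 ± 2.43 against controls (adjusted p = 0.487), and neither passed. Without tumour 2 the change was 4.21 ± 0.21 (adjusted p = 2.8e-06) and 4.74 ± 0.23 (adjusted p = 3.9e-06), which is 18.5-fold and 26.8-fold. The other 3 H2-Aa probe sets followed the same order, with 270.2 to 692.1 for the brighter pair and 34.7 to 56.7 for the third in tumours 1, 3 and 4, against 1.2 to 1.6 in tumour 2. All 4 carry names ending in x_at or s_at, which mark probes that other transcripts may share.

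H2-Ab1, the β chain that pairs with H2-Aa, gave 340.3, 5.6, 237.2 and 241.1 in tumours 1 to 4 on its brightest probe set (1450648_s_at), against 27.0, 50 and 40.8 in pre-transformed and 32.0 and 23.5 in control cells. The same 3 tumours were above all sorted arrays. The log2 change over all tumours was 1.43 ± 1.22 against pre-transformed cells (adjusted p = 0.35) and 1.90 ± 1.38 against controls (adjusted p = 0.294). Without tumour 2 it was 2.82 ± 0.28 (adjusted p = 5.45e-05) and 3.29 ± 0.32 (adjusted p = 8.43e-05), at least 5.81-fold and 6.59-fold since sorted signals were mostly dim. A second probe set (1451721_a_at) gave 166.1 to 282.5 in tumours 1, 3 and 4 and 1.4 in tumour 2, against 9.3 to 16.5 in pre-transformed and 7.9 and 8.0 in control cells. The dimmest H2-Ab1 probe set (1425477_x_at) gave 122.1, 2.3, 70.7 and 75.8 in tumours, 6.1, 4.8 and 2.2 in pre-transformed and 1.7 and 1.2 in control cells. It was the only class II probe set called higher in tumours against controls with all arrays (log2 change 4.62 ± 1.38, adjusted p = 0.0245), and it passed the filter through the tumours only. Against pre-transformed cells it did not pass with all tumours, and without tumour 2 it was called in both comparisons.

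H2-Eb1, the β chain of the I-E molecule, gave 586.9, 12.3, 516.2 and 753.1 in tumours 1 to 4, against 29.5, 45.1 and 36.1 in pre-transformed and 27.4 and 18.1 in control cells. Its log2 change was 2.66 ± 1.22 against pre-transformed cells (adjusted p = 0.0947) and 3.37 ± 1.38 against controls (adjusted p = 0.0777). Without tumour 2 it was 4.07 ± 0.26 (adjusted p = 6.98e-06) and 4.78 ± 0.29 (adjusted p = 9.55e-06), at least 13.7-fold and 15-fold. H2-Ea, the α chain of I-E, whose gene is known to be defective in C57Bl/6 mice, was dim on every array. Its signals were 5.9 to 8.5 in tumours, 0.9 to 3.0 in pre-transformed and 1.0 to 3.2 in control cells.

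Cd74, the invariant chain that guides class II molecules to the endosome, gave 1076.9, 11.6, 957.0 and 937.8 in tumours 1 to 4, against 51.4, 51.0 and 50.6 in pre-transformed and 42.2 and 35.2 in control cells. Tumour 2 was again below every sorted array. The log2 change was 2.67 ± 1.37 against pre-transformed cells (adjusted p = 0.13) and 3.08 ± 1.55 against controls (adjusted p = 0.14). Without tumour 2 it was 4.28 ± 0.17 (adjusted p = 1.27e-06), or 19.4-fold, against pre-transformed cells, and 4.68 ± 0.19 (adjusted p = 1.92e-06), at least 24.2-fold, against controls. Among tumours 1, 3 and 4 the SD of Cd74 was 0.11 on the log2 scale, against 3.21 with tumour 2.

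**Figure D1:**
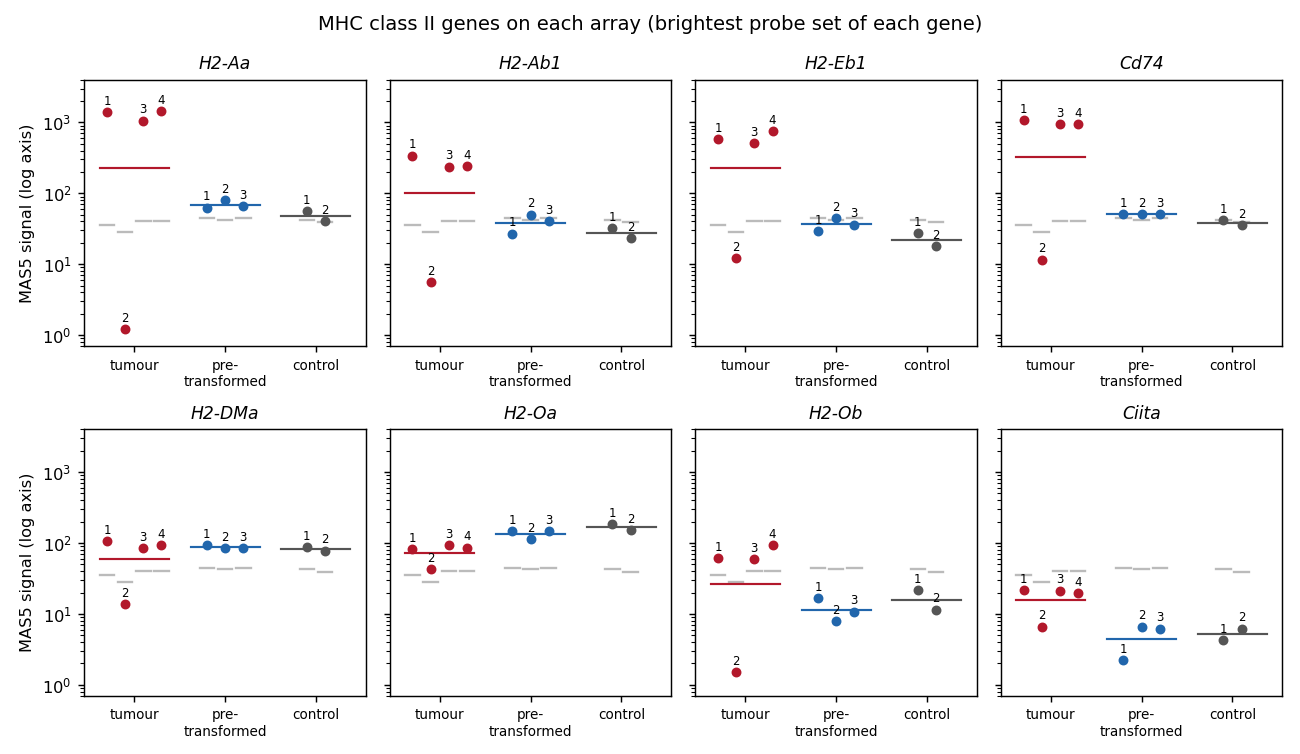
MAS5 signal (log axis) of the brightest probe set of each of the 8 measured class II genes, with 1 numbered point per array and the geometric mean of each group as a line. Short grey bars mark the 65th percentile of each array, and tumour 2 is the lowest tumour in all 8 panels.

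The genes that edit peptide loading did not all follow this pattern. H2-DMa, the α chain of the peptide exchange factor H2-DM, gave 107.1, 13.8, 84.8 and 93.7 in tumours 1 to 4, against 92.7, 84.8 and 84.9 in pre-transformed and 87.8 and 78.3 in control cells. Tumours 1, 3 and 4 lay within or close to the range of sorted cells, and tumour 2 was below it. No change of H2-DMa passed the test. The log2 change against pre-transformed cells was -0.58 ± 0.62 over all tumours (adjusted p = 0.459) and 0.12 ± 0.19 without tumour 2 (adjusted p = 0.631, 95% interval -0.31 to 0.55). Against controls it was -0.50 ± 0.70 over all tumours (adjusted p = 0.591) and 0.19 ± 0.22 without tumour 2 (adjusted p = 0.489, 95% interval -0.29 to 0.68). A second H2-DMa probe set (1459872_x_at) did not reach the filter and was at 0.5 to 6.1 in tumours, 0.3 to 0.5 in pre-transformed and 1.0 to 4.3 in control cells.

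H2-Oa, the α chain of H2-O, which restrains H2-DM and is known from B cells and thymic epithelium, fell in tumours. It gave 81.1, 43.0, 93.3 and 86.2 in tumours 1 to 4, against 148.1, 114.2 and 148.7 in pre-transformed and 184.8 and 153.3 in control cells. All 4 tumours were below all sorted arrays. The log2 change was -0.90 ± 0.29 against pre-transformed cells (adjusted p = 0.025) and -1.21 ± 0.32 against controls (adjusted p = 0.0154), which is 1.87-fold and 2.31-fold lower. Without tumour 2 it was -0.65 ± 0.20 (adjusted p = 0.0189) and -0.96 ± 0.22 (adjusted p = 0.00639). Against pre-transformed cells the adjusted p was 0.0496 under quantile normalization and 0.0529 with signals under 40 set to 40. Leaving out pre-transformed 1 or pre-transformed 3 ended the call against pre-transformed cells (adjusted p = 0.0845 and 0.0874), and leaving out control 1 or control 2 ended that against controls (adjusted p = 0.131 and 0.0647).

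H2-Ob, the β chain that pairs with H2-Oa, went with the surface chains instead. It gave 61.0, 1.5, 58.8 and 93.2 in tumours 1 to 4, against 16.8, 7.9 and 10.8 in pre-transformed and 21.4 and 11.5 in control cells, and every sorted signal was dim. The log2 change was 1.24 ± 1.24 against pre-transformed cells (adjusted p = 0.425) and 0.76 ± 1.40 against controls (adjusted p = 0.686). Without tumour 2 it was 2.62 ± 0.39 (adjusted p = 0.000444), at least 1.59-fold, and 2.15 ± 0.44 (adjusted p = 0.00353), at least 1.70-fold, against controls. A probe set shared by H2-Ob and Gm20506 was dim on all arrays. The brighter of the probe sets shared by H2-DMb1 and H2-DMb2, the β chains of H2-DM, gave 90.8, 6.4, 73.2 and 63.2 in tumours, 7.2, 1.5 and 8.6 in pre-transformed and 2.7 and 9.8 in control cells, and the signal cannot be split between the genes. On a probe set of its own, H2-DMb2 gave 124.1, 5.1, 112.7 and 93.1 in tumours, against 21.1, 18.6 and 28.4 in pre-transformed and 23.5 and 19.2 in control cells, and it was called without tumour 2 and not with all tumours (at least 2.50-fold higher than in pre-transformed cells).

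Ciita, the coactivator of the class II promoters, was dim on every array. Its probe set 1421210_at gave 21.4, 6.6, 21.3 and 19.4 in tumours 1 to 4, against 2.2, 6.6 and 6.2 in pre-transformed and 4.3 and 6.2 in control cells. It passed the filter through the tumour arrays only, so that it entered the test because of the group in which it was higher. The log2 change over all tumours was 1.79 ± 0.61 against pre-transformed cells (adjusted p = 0.0344) and 1.59 ± 0.70 against controls (adjusted p = 0.0942). With tumour 2 left out it was called in both comparisons, at 2.21 ± 0.54 (adjusted p = 0.00678) and 2.00 ± 0.60 (adjusted p = 0.0223). No fold is given, since both groups were dim. The signal of tumour 2 lay under the highest bacterial signal of that array (7.8), and those of all sorted arrays lay within 2.2 to 6.6. The call over all tumours against pre-transformed cells was kept in 10 of 19 alternative settings and lost in the others. The other Ciita probe sets did not reach the filter, with highest tumour signals of 17.9 and 8.9.

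Counted over probe sets, 1 of the 13 tested was called higher in tumours than in pre-transformed cells (Ciita) and 1 lower (H2-Oa), where 23.1% and 26.7% of all 26421 tested were called (49.8% in either direction). Against controls 1 was higher (H2-Ab1) and 1 lower (H2-Oa), where 19.4% and 20.5% of all were called (39.9% in either direction). All 4 tumours were above all pre-transformed arrays for 0 of the 13 and below for 1 (H2-Oa), where 24.4% and 29.7% of all probe sets were, and above all control arrays for 2 (H2-Ab1 and Ciita) and below for 1, where 27.4% and 30.0% of all were. The median log2 change of the 13 was 2.22 against pre-transformed cells and 2.23 against controls, beside -0.12 and -0.05 over all probe sets. Without tumour 2, 11 were called higher and 1 lower in each comparison. This covered 6 genes higher and 1 lower, with H2-DMa the remaining gene, where 24.9% and 27.7% of all probe sets were called against pre-transformed cells (52.7% in either direction) and 22.3% and 22.6% against controls (44.9%). The median of the 13 was then 4.07 and 4.68, beside -0.07 and 0.0033 over all. The 3 probe sets that passed the filter through tumours only are among these, and both tumour comparisons share the tumour arrays. Tumour 2 was left out for its low class II signals, which favours calls of higher, so that the counts without it only describe. Taken array by array, 12, 0, 11 and 12 of the 13 in tumours 1 to 4 were above every sorted array, where 38.4%, 36.3%, 38.6% and 39.3% of all probe sets were. In tumour 2, 10 of the 13 were below every sorted array, where 45.4% of all were.

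**Figure D2:**
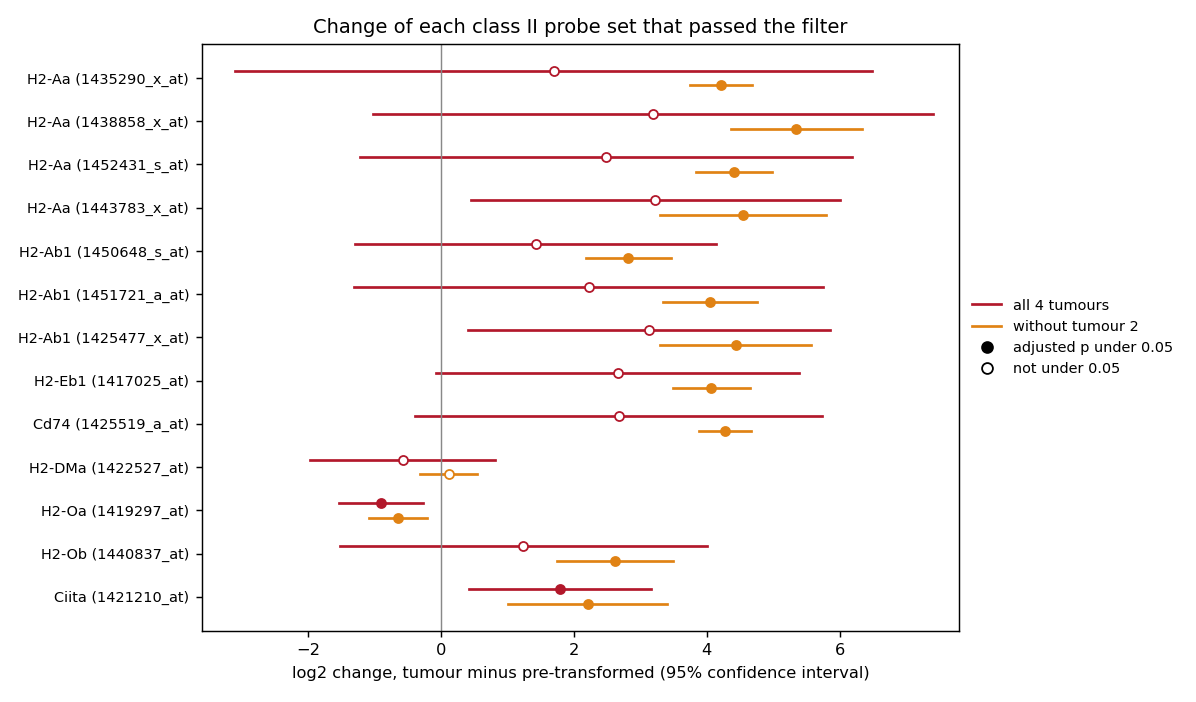
Log2 change, tumour minus pre-transformed, of the 13 class II probe sets tested, with 95% confidence intervals from limma, over all 4 tumours (red) and without tumour 2 (orange). Filled points had an adjusted p under 0.05: 2 over all tumours, and 12 without tumour 2, where H2-DMa is the open point.

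Among sorted DP cells, no class II probe set was called between pre-transformed and control mice, where limma called 0.833% of all 26421 tested (0.587% rising and 0.246% falling). An unadjusted p under 0.05 was reached by 2, namely H2-Aa (log2 change 0.53 ± 0.22, adjusted p = 0.27) and H2-Eb1 (0.71 ± 0.29, adjusted p = 0.277). The change of Cd74 was 0.40 ± 0.19 (adjusted p = 0.344), of H2-Ab1 0.47 ± 0.31 (adjusted p = 0.489), of H2-DMa 0.08 ± 0.16 (adjusted p = 0.849) and of H2-Oa -0.31 ± 0.17 (adjusted p = 0.415). Every pre-transformed array was above every control array for 6 of the 13 probe sets, of H2-Aa, H2-Ab1, H2-Eb1 and Cd74, where 20.5% of all probe sets were. Every one was below for 2 of the 13, of H2-Aa and H2-Oa, where 14.9% of all were, and the H2-Aa probe set among them was dim throughout. The median log2 change of the 13 was 0.38, beside 0.04 over all probe sets.
Between these sorted groups 1 of 14 macrophage and monocyte markers was called higher and 1 of 8 B cell markers lower. Over all probe sets 0.587% and 0.246% were. Of 8 neutrophil and 8 dendritic cell markers tested, 0 were called. Signals of 15 macrophage and monocyte genes summed to 208.1, 438.8 and 282.2 in pre-transformed cells and 302.3 and 183.0 in control cells. Pre-transformed 2 had the highest macrophage sum of the sorted arrays and the highest H2-Aa signal (80.5), and control 2 the lowest of both (183.0 and 40.7). The arrays between them did not keep one order, since pre-transformed 1 had a lower macrophage sum than control 1 (208.1 and 302.3) and a higher H2-Aa signal (62.8 and 56.2), and Cd74 was 50.6 to 51.4 on all pre-transformed arrays. Of those markers Itgam was called higher (log2 change 2.50 ± 0.43, adjusted p = 0.0497), with 33.3, 53.4 and 33.0 in pre-transformed and 4.4 and 10.8 in control cells. Ighm, the μ heavy chain of B cells, was called lower (-0.66 ± 0.11, adjusted p = 0.0481). The B cell markers Cd79a and Ms4a1 were dim on all sorted arrays (2.7 to 5.8 and 1.5 to 8.9), and neither was called. The part of other cells in the class II signals of sorted arrays was not tested.

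In the tumours, many markers of other blood cells moved with the class II genes. In bulk samples such as these, fewer cells of a type and less RNA per cell cannot be told apart. The 8 class II genes summed to 3657, 95.6, 3027 and 3662 in tumours 1 to 4, against 430.5 to 443.6 in pre-transformed and 366.8 to 456.1 in control cells, each sum being read across arrays only. The 15 named macrophage and monocyte markers summed to 3462, 197.6, 3256 and 3228 in tumours, against 208.1 to 438.8 and 183.0 to 302.3. Of these 15, 14, 3, 15 and 14 were above every sorted array in tumours 1 to 4. Lyz2, a lysozyme of myeloid cells, gave 1659.3, 3.1, 1376.4 and 1741.0 in tumours, 42.0 to 89.6 in pre-transformed and 46.9 to 73.3 in control cells. Csf1r, the receptor for macrophage colony-stimulating factor, gave 412.3, 8.4, 300.6 and 475.0 in tumours, against 20.0 to 45.3 and 12.0 to 27.4. Tumour 2 was again below all sorted arrays for both. Itgam, a chain of the integrin CR3, was an exception, at 31.4, 113.2, 57.7 and 23.4 in tumours and thus highest in tumour 2.

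Counts of markers called higher than in pre-transformed cells stand beside 23.1% of all probe sets with all tumours and 24.9% without tumour 2. Of 14 macrophage and monocyte markers tested, 2 were higher over all arrays, and 13 without tumour 2. Some markers passed the filter through the tumour arrays only and so entered the test by being higher there, namely 3 of these 14, 6 of 8 neutrophil, 3 of 8 B cell and 2 of 8 dendritic cell markers. The 9 named neutrophil markers summed to 1019, 28.9, 1755 and 757.4 in tumours, against 14.1 to 25.7 in pre-transformed and 26.4 to 46.4 in control cells, and 5 of 8 tested were higher, or 8 without tumour 2. Of 8 B cell markers tested, 3 were higher, or 6 higher and 1 lower without tumour 2. The lower one was Cd79b, which was below every sorted array in all 4 tumours. It gave 80.7, 1.3, 73.6 and 108.5 in tumours. Its signals were 195.8 to 215.2 in pre-transformed and 235.1 and 253.9 in control cells. Pax5 and Ebf1 did not reach the filter and were dim on all arrays. Ms4a1, which encodes CD20, gave 197.9, 5.0, 138.9 and 269.7 in tumours, against 1.5 to 8.9 in pre-transformed and 6.8 in both control arrays. The sum of 10 B cell markers, 5797, 273.4, 5586 and 2048 in tumours, was set mainly by Ighm, which was bright in sorted cells too (1553 to 2779). Of 8 dendritic cell markers, 1 was higher, or 4 without tumour 2. The 1 over all tumours was Flt3, dim on all arrays, with 20.0, 12.9, 12.3 and 18.7 in tumours and 1.0 to 6.4 on sorted arrays. The integrin Itgax gave 58.1, 7.0, 64.7 and 64.5 in tumours and 1.1 to 13.3 on sorted arrays. It was called without tumour 2 and not with it (adjusted p = 0.0788). Cst3 gave 680.0, 484.9, 647.0 and 616.9 in tumours and 577.2 to 770.2 on sorted arrays. Cst3, Ccr7, Fscn1 and Zbtb46 were not called with or without tumour 2.

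Thymic epithelium is the other site of class II molecules in the thymus. Its 12 markers summed to 255.4, 182.4, 242.6 and 314.2 in tumours, 162.5 to 236.9 in pre-transformed and 194.5 to 201.5 in control cells. Foxn1, Psmb11, Krt5 and Krt8, which define these cells, were dim on all arrays. Of 7 epithelial markers tested, 1 was higher and 2 lower in tumours than in pre-transformed cells, or 2 higher and 2 lower without tumour 2. Over all probe sets 23.1% were higher and 26.7% lower, or 24.9% and 27.7% without tumour 2. Aire, the regulator of self-antigen display, gave 24.6, 0.8, 31.6 and 18.1 in tumours, all dim, against 0.6 to 9.3 in pre-transformed and 1.2 and 2.6 in control cells. It was called without tumour 2 (adjusted p = 0.00971) and not with it (adjusted p = 0.147), and it passed the filter through the tumours only. Cldn4, a tight junction protein, was lower, at 2.2 to 27.6 in tumours against 41.2 to 96.6 and 86.6 to 109.0 (adjusted p = 0.00483). The chemokine Ccl25 was called lower as well (adjusted p = 0.0221). It gave 21.8 to 26.7 in tumours and 35.8 to 47.4 on sorted arrays, and the mean of each group was dim. Ly75, an endocytic receptor also known from dendritic cells, gave 106.3, 92.3, 110.8 and 173.7 in tumours and 11.0 to 26.4 on sorted arrays, and made up much of the tumour sum. Markers of DP thymocytes summed to 9755, 9821, 14344 and 13136 in tumours, against 25385 to 27202 in pre-transformed and 24078 to 25517 in control cells, and the sum of tumour 2 lay within the range of the other tumours. Of 9 tested, 8 were lower in tumours than in pre-transformed cells, where 26.7% of all probe sets were. Cd4, at 1008 to 1725 in tumours, against 832.1 to 1110 in pre-transformed and 706.6 to 738.3 in control cells, did not pass against pre-transformed cells (adjusted p = 0.206) and was higher than in controls (log2 change 0.77 ± 0.22, adjusted p = 0.0195). The 10 stromal and endothelial markers summed to 444.8, 184.4, 261.1 and 305.5 in tumours. Their sums were 159.2 to 205.4 in pre-transformed and 159.4 to 189.2 in control cells. The 3 named red cell markers summed to 36.2, 12.6, 65.5 and 70.9 in tumours, against 2.1 to 2.6 and 1.7 to 3.0. Both of these sums were lowest in tumour 2 among tumours. The part of macrophages, B cells, dendritic cells, neutrophils and other cells in the class II signals was not tested.

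**Figure D3:**
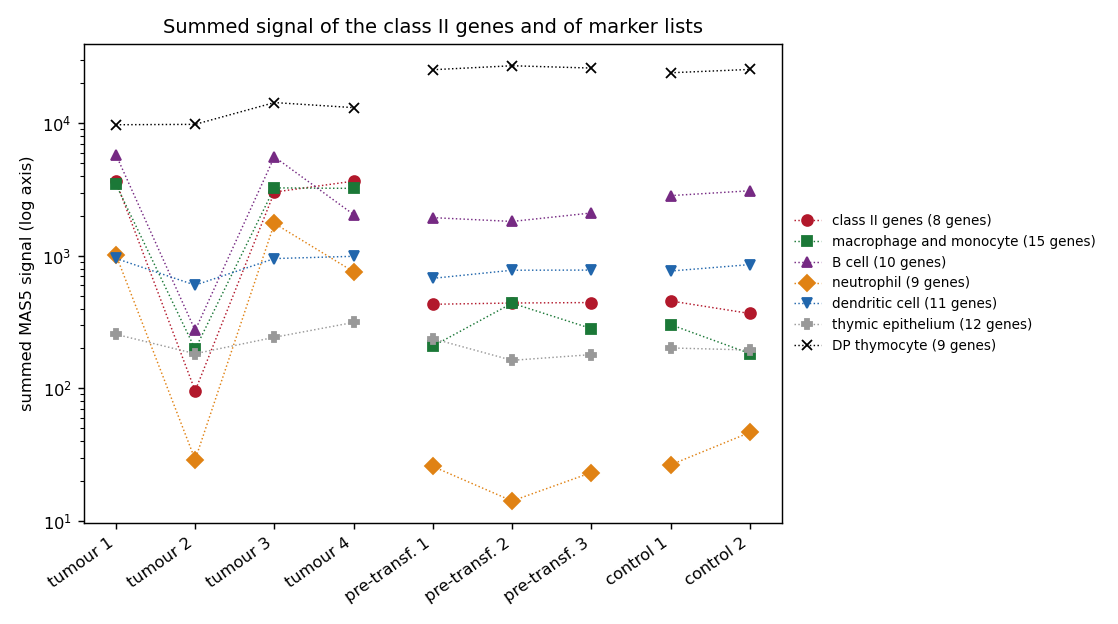
Summed MAS5 signal (log axis) of the 8 class II genes and of 6 marker lists on each of the 9 arrays. Class II, macrophage and neutrophil sums of tumour 2 (95.6, 197.6 and 28.9) lay near or below those of sorted cells, and its DP sum (9821) near that of tumour 1 (9755).

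Genes whose log2 signal was most like that of Cd74 over the 9 arrays were drawn from 21905 probe sets that passed the filter and name 1 gene. Outside the class II genes, the highest Pearson correlations were those of Cd5l (r = 0.994), Slc40a1 (0.989), Clec4a3 (0.988), Tut4 (0.987), Ctss (0.985), Clec7a (0.985), Cd68 (0.984), Cybb (0.983), Adgre1 (0.983) and Cd79a (0.982). Cd5l and Adgre1 are known from macrophages, and Cd79a encodes a chain of the B cell receptor. Among class II probe sets, r was 0.99 for H2-Eb1, 0.91 for H2-Ob, 0.82 for Ciita, 0.56 for H2-DMa and -0.13 for H2-Oa. The arrays share 3 groups and the low tumour 2, and these values describe a common pattern over them.

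Proteases and other genes of class II antigen processing differed from one another. Of 10 tested from a list of 12, 7 were called higher and 2 lower in tumours than in pre-transformed cells, where 23.1% and 26.7% of all probe sets were. Of the 10, 5 passed the filter through the tumour arrays only and so entered the test by being higher there. Ctss, the cathepsin that trims the invariant chain in blood-borne presenting cells, gave 1054.5, 11.9, 964.7 and 1022.9 in tumours, against 39.0, 104.8 and 57.0 in pre-transformed and 71.2 and 42.0 in control cells. It did not pass over all tumours (log2 change 2.44 ± 1.40, adjusted p = 0.171) and was called without tumour 2 (4.04 ± 0.34, adjusted p = 2.32e-05). Ifi30, the thiol reductase GILT, gave 418.8, 109.3, 420.7 and 405.8 in tumours, against 43.1 to 66.1 in pre-transformed and 52.0 and 56.7 in control cells. All 4 tumours were above all sorted arrays, and the log2 change was 2.51 ± 0.45 (adjusted p = 0.00152).
Ctsb, a lysosomal cathepsin, rose in all 4 tumours alike, with 5662, 5411, 5322 and 3675 in tumours, against 713.5 to 979.8 in pre-transformed and 724.3 and 749.1 in control cells (log2 change 2.61 ± 0.17, adjusted p = 1.25e-05). Ctsl, the cathepsin that trims the invariant chain in mouse thymic epithelium, fell, with 387.0, 417.2, 486.6 and 478.8 in tumours, against 1639, 4373 and 4283 in pre-transformed and 4076 and 1616 in control cells (-2.83 ± 0.38, adjusted p = 0.000306). Tumour 2 thus did not stand apart for Ctsb or Ctsl. Ctsd, also called lower (adjusted p = 0.0267), gave 417.6, 165.4, 541.1 and 366.4 in tumours and 657.4 to 860.3 on sorted arrays. Lgmn, called higher (adjusted p = 0.023), gave 96.9, 4.9, 90.2 and 63.5 in tumours and 2.1 to 8.0 on sorted arrays. Tumour 2 was the lowest tumour for Ctsd and Lgmn, and Lgmn passed the filter through the tumour arrays only. Cd83, which stabilises surface class II, gave 40.9 to 79.1 in tumours and 1.0 to 2.6 on sorted arrays (at least 1.45-fold higher than in pre-transformed cells, adjusted p = 3.85e-05). Marchf8, a ubiquitin ligase that removes surface class II, was called higher (adjusted p = 0.00164), with dim signals on all arrays but tumour 2 (74.7). Both passed the filter through the tumour arrays only. Without tumour 2 the calls of Ifi30 (2.99 ± 0.21), Ctsb (2.57 ± 0.19), Ctsl (-2.80 ± 0.41), Cd83 and Marchf8 stood.

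Among the factors that bind class II promoters, 3 fell in tumours. Of 7 tested with limma, 0 were called higher and 3 lower against pre-transformed cells, and likewise against controls and without tumour 2. Over all probe sets, 26.7% were lower against pre-transformed cells and 20.5% against controls. Counted at an unadjusted p under 0.05, 0 were higher against pre-transformed cells. The RFX subunit Rfxap gave 94.2, 113.5, 108.9 and 95.1 in tumours, against 309.3 to 341.9 in pre-transformed and 360.1 and 366.8 in control cells (log2 change -1.65 ± 0.16 against pre-transformed cells, adjusted p = 5.01e-05). Its partner Rfxank gave 42.0, 33.9, 43.9 and 54.7 in tumours, against 136.5 to 170.8 and 175.8 to 192.7 (-1.83 ± 0.22, adjusted p = 0.000149). The groups did not overlap for either gene, and tumour 2 was within or close to the other tumours. Nfyc, a subunit of NF-Y, was lower as well (-0.60 ± 0.12, adjusted p = 0.00284), whereas Rfx5 was at -0.01 ± 0.29 (adjusted p = 0.977).

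Interferon-γ signalling is a route that induces Ciita in many cells. Each of the 7 genes tested, of 9 listed, was called lower in tumours than in pre-transformed cells, and 6 against controls, where 26.7% and 20.5% of all probe sets were. Without tumour 2, 6 were called lower in each comparison, where 27.7% and 22.6% of all were, with Jak1 the one that did not pass (adjusted p = 0.0529 against pre-transformed cells). Ifngr1, a chain of the interferon-γ receptor, gave 421.5, 225.5, 279.2 and 329.9 in tumours, against 722.1 to 932.5 in pre-transformed and 1095 and 1221 in control cells (log2 change -1.40 ± 0.21, adjusted p = 0.000532). Irf2, a transcription factor of this route, fell further (-2.56 ± 0.38, adjusted p = 0.000508), with 30.4 to 96.2 in tumours and 324.7 to 354.0 in pre-transformed cells. Ifng itself was at 0.2 to 4.3 on all arrays. Of the genes known to repress Ciita, Ezh2, the methyltransferase of Polycomb complex PRC2, was higher in tumours than in pre-transformed cells (0.73 ± 0.21, adjusted p = 0.0165), with 3526 in tumour 2 and 1960 to 3142 in the other tumours, against 1452 to 1755 in pre-transformed and 1564 and 1818 in control cells. Against controls it did not pass (adjusted p = 0.0624). With tumour 2 left out, the change of Ezh2 against pre-transformed cells was 0.58 ± 0.19 (adjusted p = 0.0249). Of 3 repressors listed, 2 were tested, and 1 was called higher than in pre-transformed cells, or 2 without tumour 2. Over all probe sets 23.1% and 24.9% were. Prdm1, the other one tested, was dim on all arrays, with 27.6, 12.0, 33.2 and 30.4 in tumours and 9.1 to 19.8 on sorted arrays. It was called without tumour 2 (adjusted p = 0.0199) and not with it (adjusted p = 0.143). Zbtb32 did not reach the filter and gave 14.5, 6.2, 14.2 and 11.5 in tumours.

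**Figure D4:**
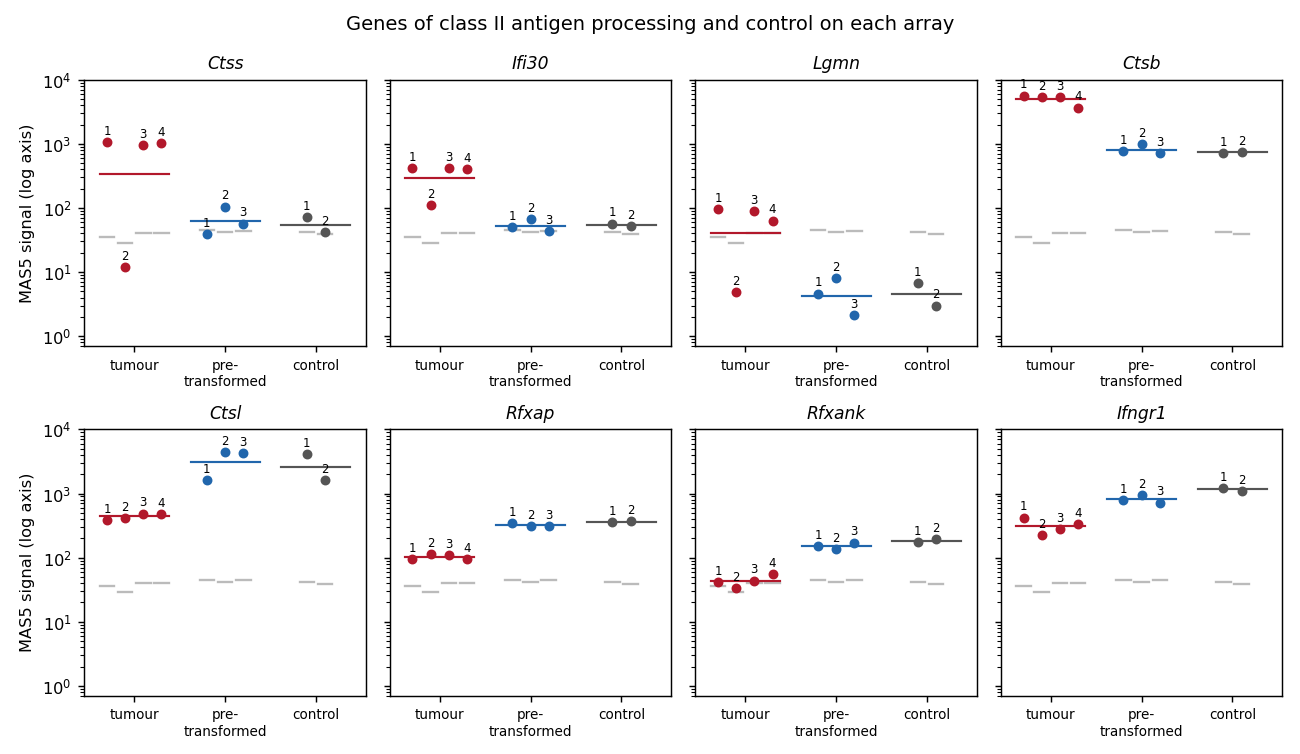
MAS5 signal (log axis) of 8 genes of class II processing and control, with 1 numbered point per array, group geometric means as lines and the 65th percentile of each array as short grey bars. Ctss was low in tumour 2 (11.9) and high in the other tumours (964.7 to 1054.5), while Ctsb was high and Ctsl, Rfxap, Rfxank and Ifngr1 were low in all 4.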

How the data were processed

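RNA of 9 mice was read on 1 oligonucleotide array each (tumour n = 4, pre-transformed n = 3, control n = 2). The table deposited by the authors gives a linear intensity for each probe set, made with MAS5 per the submitters' processing notes, in a version not given in the sources used here. Per the labels' protocols, RNA was extracted with a column kit and treated with DNase I. Checked on the values, each array had a mean of 100 without its lowest and highest 2% of probe sets, and values were rounded to 0.1. The number of arrays limits the precision.

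From the 45101 probe sets, 64 control probe sets were left out. Signals were not normalized further and were put on a log2 scale, for which 218 values of 0 became 0.1. Probe sets at or above their array's median on at least 2 arrays were kept (26421). Genes were named from the platform annotation, in which 34945 probe sets name 1 gene, 932 several and 9160 none, with symbols updated through RefSeq (0 changed). Group values are geometric means with SD on the log2 scale, and errors of log2 changes are SE.

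Tests used limma 3.58.1 in R 4.3.3 (lmFit, eBayes with trend) with Benjamini-Hochberg adjustment over the 26421. The 5 sorted arrays had a fit of their own, and tumour comparisons used all 9 arrays. The fits were tested on simulated data. Each gene was represented by its probe set with the highest mean over arrays, and from other lists up to 4 genes with the smallest adjusted p, and for markers the highest tumour means, could be named; further genes named here were chosen after their values were seen. A fold given as at least a value sets each dim array to its 65th percentile, and none is given where both groups were dim. Likeness to Cd74 is Pearson's r of log2 signals. Sequences are from RefSeq (GRCm38.p6). The members, lists and tests were chosen with earlier results of these data known. Same-numbered arrays are different mice, and over 7 such pairs deviations from group means correlated at 0.01 to 0.11, so that no pairing was used. Alternatives were other filters, normalizations, floors, probe set rules, variance models, sets of arrays, a replicate block and each array left out. Figures used Python 3.11.15 with matplotlib 3.10.9.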

Additional observations from a re-analysis of the deposited data

Results flagged for a closer look

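Tumour 2 lay far below the other 3 tumours for 7 of the 8 class II genes. Its gap to the nearest tumour, as a share of the range of the 4 log2 signals, was 0.957 for H2-Aa, 0.912 for H2-Ab1, 0.908 for H2-Eb1, 0.969 for Cd74, 0.886 for H2-DMa, 0.888 for H2-Ob and 0.917 for Ciita, all above the 95% critical value of Dixon's test for 4 samples. For H2-Oa the share was 0.819, under that value. Chance puts about 1 in 20 groups above it, and the genes are measured on the same 4 arrays, so that the 7 are not independent.

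The probe set 1449580_s_at, which names H2-DMb2 and H2-DMb1 and was in no comparison, had a geometric mean of 40.5 in tumours, against 4.53 in pre-transformed and 5.14 in control cells. Tumour 2 was at 6.4, within the sorted range of 1.5 to 9.8, and the other tumours were at 63.2 to 90.8.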

How the results depend on the processing

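In the tumour comparisons the class II calls depended on tumour 2, the filter, the normalization, the floor, array weights and other settings given below. Against pre-transformed cells the count called higher was 1, and became 2 with no filter or with median centring, 4 with log2(signal + 10) and 9 with array weights. It was 0 with the stricter filter, quantile normalization, the common floor of 40 or the replicate block, and 0 to 11 with each array left out, with 11 without tumour 2. The count lower was 1, and 0 with the common floor and 0 to 1 with each array left out. Against controls the count higher was 1, and became 2 with no filter and 9 with array weights. It was 0 with the stricter filter, quantile normalization, the common floor, 1 probe set per gene, the mean per gene, the groups fitted alone or the replicate block, and 0 to 11 with each array left out. The count lower was 1, or 0 without control 1 or control 2.

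Between pre-transformed and control cells 0 class II probe sets were called under every alternative run. Over all probe sets the count there was 220, and became 58 with no filter, 21 with the common floor, 3 with no trend, 482 with array weights, 13 with all arrays fitted, 143 with the replicate block and 11 (without control 2) to 179 with each array left out, including 28 without control 1 and 37 without pre-transformed 3. Over all probe sets tumours against pre-transformed cells gave 13168 calls, or 6392 and 6191 with 1 probe set or the mean per gene. Against controls there were 10555, or 5323 and 5107, and 4647 (without control 1) to 11850 with each array left out, including 5559 without control 2.

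Directions turned in changes that were not called. In pre-transformed against control cells, H2-DMa turned to -0.056 with median centring and ranged from -0.0068 (without control 2) to 0.16 with each array left out. In tumours it ranged from -0.87 to 0.12 against pre-transformed cells and from -0.79 to 0.19 against controls, above 0 without tumour 2 alone. In pre-transformed against control cells H2-Aa turned to -0.048 with the mean of its probe sets, and Ciita ranged from -0.48 to 0.31, above 0 without pre-transformed 1 or control 2. H2-Ob, at 0.76 in tumours against controls, turned to -0.26 with the replicate block. H2-Oa kept its call in 18 of 21 alternatives against pre-transformed cells and 19 of 21 against controls. The cause of these differences was not tested. Signals near background limit Ciita, H2-Ob and the dimmer probe sets, and with the common floor some of these have no value. In tumour 2 the brightest H2-Aa and H2-Ab1 probe sets (1.2 and 5.6) lay under the highest bacterial signal of that array (7.8). Their changes and errors over all tumours thus rest in part on such a signal.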
